A study of Drosophila melanogaster with 32 samples.

Results

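FMRP HyperTRIBE replicate 1 listed 4694 edited sites in the RNA of Drosophila S2 cells, and 1397 of them appeared in none of the 6 lists made with the other constructs. These 1397 sites are described here and are called FMRP-only sites. The sites were chosen by listing, that is in part by whether their measured reads and percent edited passed the minimum of each library. A site was a chromosome and a position, counted once even where several genes overlapped it, and it was kept if it stood in the FMRP list and in no list of Hrp48 TRIBE, Hrp48 HyperTRIBE or the deaminase alone. The share was 29.8% of the FMRP sites (Wilson 95% interval 28.5 to 31.1%), out of 33835 different sites over all 7 lists. The sites fell in 773 of the 2003 genes that FMRP HyperTRIBE listed, or 38.6%. The remaining 3297 FMRP sites, in 1730 genes, served for comparison.

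FMRP, the product of Fmr1, is an RNA-binding protein that binds many mRNAs and acts mostly as a regulator of their translation. Loss of its human counterpart causes fragile X syndrome, and in flies Fmr1 is best known for its roles in neurons and the germline. In TRIBE an RNA-binding protein is fused to the deaminating part of the enzyme ADAR, which turns adenosines near the bound site into inosine, read as guanosine in the sequence. HyperTRIBE uses a catalytic domain with the E488Q change, which edits more strongly.

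S2 cells are a Drosophila cell line of embryonic origin with hemocyte-like features. All 7 libraries came from S2 cells that were transiently transfected, treated with copper sulfate to switch on the construct, and sorted by fluorescence, and all were made from poly(A) RNA. Of the 32 samples of the series, these 7 were analysed. The constructs were FMRP joined to the E488Q domain (1 library), Hrp48 joined to the E488Q domain (Hrp48 HyperTRIBE, 2 libraries), Hrp48 joined to the unchanged domain (Hrp48 TRIBE, 2 libraries) and the E488Q domain with no RNA-binding protein (deaminase alone, 2 libraries). Hrp48, encoded by Hrb27C, is an hnRNP protein. Transfected cells hold the construct beside the cell's own genes, and reads of the 2 cannot be separated.

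Each list gave the edited and total reads of a site, with at least 20 reads and at least 10% edited in every line. Every line also held a second set of base counts, from a sample not stated, with at least 10 reads and 0 edited. Absence from a list can therefore mean that a site had too few reads or too little editing, or was not edited. It can also mean that the second set lacked reads or held edited ones. FMRP HyperTRIBE replicate 2 and an FMRP TRIBE library belong to the series but were not analysed here. With 1 FMRP library analysed, no test between constructs was made, and the values below are descriptions. Intervals are Wilson 95% intervals for counting error; they treat every site and read as independent, although sites share genes and several reads can come from 1 molecule. The lists differed widely in length. Hrp48 HyperTRIBE listed 19706 and 22803 sites, Hrp48 TRIBE 1252 and 1400, and the deaminase alone 13 and 459. Reads at the listed sites of a library came to between 559 and 979818, with 183333 for FMRP, whose median was 31 reads a site. The file headers give the FMRP library a library set of its own, so the construct and the set cannot be told apart. Of 8 hemocyte markers 5 were listed in some library and 4 with FMRP (Cg25C, vkg, Ppn and crq), and of 7 neuronal markers brp was listed elsewhere and none with FMRP.

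The FMRP-only sites were weakly edited and modestly covered. Editing ran from 10% to 50% with a median of 13% and quartiles of 10.8 and 16.4%, against a median of 16.3% (12.5 to 23.4%) at the other FMRP sites, where it reached 100%. Reads ran from 20 to 128 with a median of 28 (quartiles 23 and 37), against 34 (26 to 49). The median number of edited reads was 4, against 6. Editing and reads bear on whether any library lists a site, so these differences are tied to the rule and were not tested.

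Many calls rested on very few edited reads. At 547 FMRP-only sites, or 39.2% (36.6 to 41.7%), the list counted 2 or 3 edited reads, against 16% (14.8 to 17.3%) of the other FMRP sites. At 533 sites (38.2%) there were 5 or more, against 69.6%. Only 157 FMRP-only sites (11.2%) had 50 reads or more and only 21 (1.5%, 0.985 to 2.29%) were edited at 30% or more, where the other FMRP sites had 23.9% and 13.4%. Reads of neither the unedited nor the edited base, a measure of sequencing error, made up 11 of 45992 reads at FMRP-only sites (0.0239%, 0.0134 to 0.0428%) and 0.0568% (0.0455 to 0.0709%) at the others. The plot of editing against reads shows the FMRP-only sites lining the lower edge of the cloud.

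**Figure D1:**
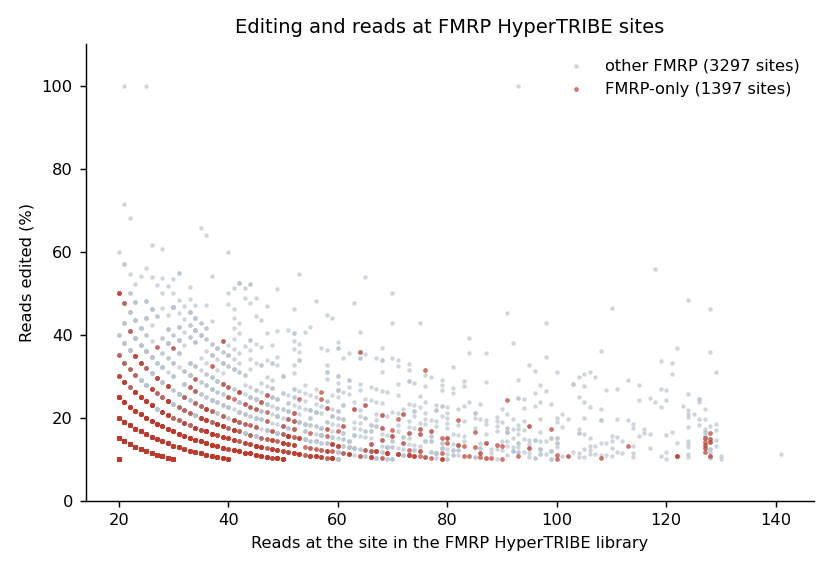
Each point is a site listed with FMRP HyperTRIBE, placed by its reads (x axis) and the percent of them that were edited (y axis). The 1397 FMRP-only sites (red) reach at most 50% editing and 128 reads, while the 3297 other FMRP sites (grey) reach 100%; points form curves because edited reads are whole numbers.

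The more a site was edited with FMRP, the less often it was missing from the other lists. Among FMRP sites edited at 10 to under 12%, 532 of 1197 (44.4%) were FMRP-only. The share was 35.1% from 12%, 29.2% from 15%, 16.9% from 20% and 4.55% (21 of 462) at 30% or more. Reads showed the same order: 39.1% of FMRP sites with under 30 reads were FMRP-only, 25.5% of those with 30 to under 50, 19.1% of those with 50 to under 75 and 13% (9.99 to 16.7%) at 75 or more.

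The 2 Hrp48 HyperTRIBE libraries missed each other's sites at least as often as they missed FMRP sites. Hrp48 HyperTRIBE replicate 1 did not list 43.8% (42.4 to 45.2%) of the FMRP sites and replicate 2 did not list 39.3% (37.9 to 40.7%). Of the sites of Hrp48 HyperTRIBE replicate 1, replicate 2 did not list 44.9% (44.2 to 45.6%), and in the other direction the share was 52.4% (51.8 to 53.1%). For the shorter lists the shares were 73.7% and 76.5% between the Hrp48 TRIBE replicates and 38.5% and 98.3% between those of the deaminase alone. In the lowest editing range the 2 Hrp48 HyperTRIBE libraries missed 73.4% and 70.1% of each other's sites, and replicates 1 and 2 missed 58.1% and 55.9% of the FMRP sites. At 30% or more Hrp48 HyperTRIBE replicate 1 still missed fewer FMRP sites (19.3%) than sites of its own replicate (32.4%). For replicate 2 the order had turned from 20% on, with 23.8% of FMRP sites and 21.1% of its replicate's, and then 9.31% and 8.05%. Hrp48 HyperTRIBE replicates 1 and 2 also had 41.8% and 48.6% of their sites in no other list, above the 29.8% of FMRP. The counts are not alike, since each Hrp48 HyperTRIBE library had its own replicate among the other lists and FMRP had none. Counted against the other constructs only, as for FMRP, the shares were 80.8% and 82.3%. The 29.8% is below the share of either Hrp48 HyperTRIBE library by both counts, though those lists are longer and were set beside others. Which protein bound near a site was not measured.

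**Figure D2:**
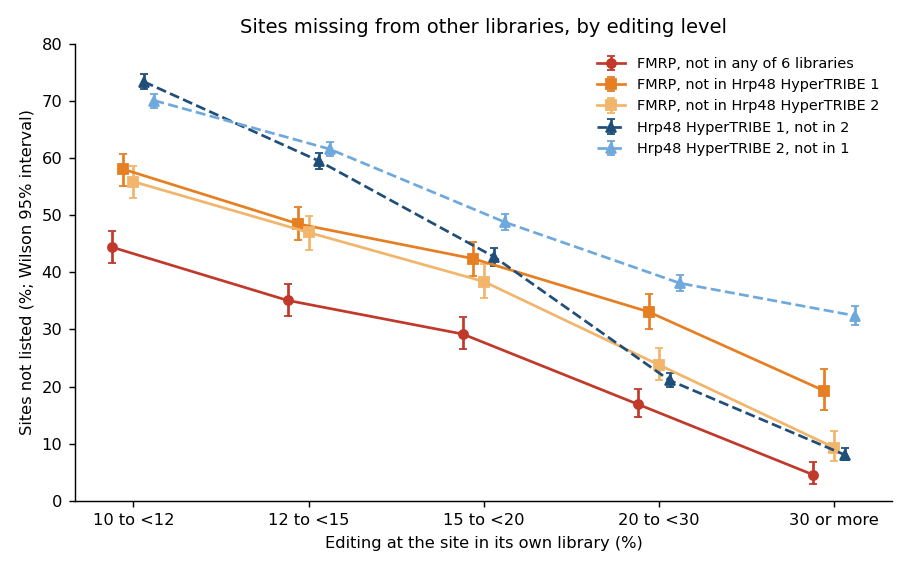
Percent of sites not listed elsewhere (y axis, with Wilson 95% intervals) by the percent edited in the site's own library (x axis). FMRP sites listed in none of 6 libraries fall from 44.4% to 4.55%, and the replicate lines of Hrp48 HyperTRIBE (dashed) start above the FMRP lines, at 73.4% and 70.1%.

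Just outside the rule stood 1047 FMRP sites that exactly 1 other library listed. In 417 cases this was Hrp48 HyperTRIBE replicate 1, where the sites had a median of 13.6% editing on 34 reads, and 29.0% of them were under 12%. In 612 cases it was Hrp48 HyperTRIBE replicate 2, with a median of 16.7% on 32 reads and 22.1% under 12%. Deaminase-alone replicate 2 accounted for 11 and the Hrp48 TRIBE libraries for 4 and 3. In the FMRP library these 1047 sites had medians of 14.6% and 27 reads, beside 13% and 28 reads inside the rule. Over all FMRP sites that another library listed, the medians were 16.3% and 34 reads.

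The FMRP-only sites were spread thinly over many genes with a few dense ones. Of the 773 genes, 497 (64.3%) held 1 such site, and 51 held 5 or more, together 381 sites or 27.3% of all. The 20 genes with most held 213 (15.2%). Both Hrp48 HyperTRIBE libraries listed sites in 608 of the 773 genes (78.7%, 75.6 to 81.4%), so most of these transcripts were edited with Hrp48 too. By the rule these sites never stand at the FMRP-only positions, though they can coincide with other FMRP sites of the gene. The same share was not counted over all FMRP genes, so the 78.7% cannot be called particular to these genes. Over all 2003 FMRP genes, 167 (8.34%) held more sites with FMRP than in either Hrp48 HyperTRIBE library. Among the 20 leading genes it was 13, and since these were ranked by FMRP-only sites, the ranking favours such genes.

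**Figure D3:**
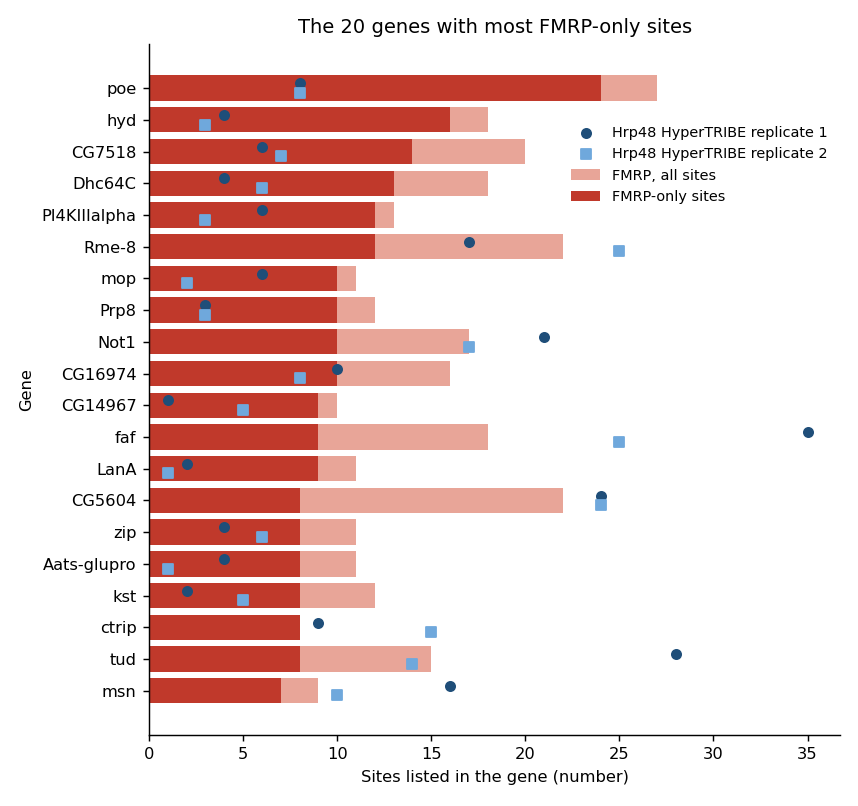
Number of listed sites (x axis) in the 20 genes with most FMRP-only sites. Bars give FMRP sites, with FMRP-only sites in dark red (24 of 27 in poe), and symbols give Hrp48 HyperTRIBE replicates 1 and 2, which lie left of the bar's end in poe, hyd, Dhc64C and Prp8 and right of it in faf, ctrip and msn.

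Enzymes of the ubiquitin pathway led the genes. poe, which encodes a giant calmodulin-binding protein related to the mammalian E3 ligase UBR4, held 24 FMRP-only sites of 27 FMRP sites, against 8 and 8 sites in Hrp48 HyperTRIBE and none in Hrp48 TRIBE or the deaminase alone. Its sites lay in exons between positions 8054758 and 8063145 of chromosome 2L (minus strand; all positions are dm3) and were edited at 10.3 to 27.3% on 21 to 54 reads. The highest was at 8057627 with 9 of 33 reads (27.3%, 15.1 to 44.2%), and 8057161 followed with 7 of 26 (26.9%). The Hrp48 HyperTRIBE sites of poe had medians of 32.5 and 28.5 reads, beside 31.5 at the FMRP-only sites, but these are listed sites at other positions and do not give the depth of the Hrp48 libraries where FMRP alone was listed.

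hyd encodes a HECT-domain E3 ligase, a tumour suppressor of imaginal discs. It held 16 FMRP-only sites of 18, against 4 and 3 in Hrp48 HyperTRIBE (3R, 5541957 to 5548483, minus strand), edited at 10 to 26.9%. ctrip, another predicted HECT ligase, held 8 of 8, but Hrp48 HyperTRIBE listed 9 and 15 sites there, none of them at the same positions. CG5604, now Ufd4, held 8 of 22 against 24 and 24, and the deubiquitinase gene faf held 9 of 18 against 35 and 25. In poe and hyd the FMRP sites were more numerous than in either Hrp48 HyperTRIBE library, and in faf, CG5604 and ctrip they were fewer. Among the fixed lists the one of ubiquitin ligases, their subunits and deubiquitinases had 11 of its 16 FMRP-listed genes with an FMRP-only site, and 76 of 129 sites (58.9%, 50.3 to 67.0%), beside 38.6% of all FMRP genes and 29.8% of all FMRP sites. Of these 76 sites 24 were in poe and 16 in hyd, and the list was written with earlier results of these data known. A gene with more FMRP sites has more places for an FMRP-only site. This list had 129 FMRP sites in 16 genes, and FMRP HyperTRIBE as a whole 4694 in 2003 genes. The gene shares of this and the other lists were not adjusted for that, so they cannot be read as enrichment.

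Some motor and cytoskeletal genes were among the 20 with most FMRP-only sites. Dhc64C, the heavy chain of cytoplasmic dynein, held 13 FMRP-only sites of 18, against 4 and 6 in Hrp48 HyperTRIBE (3L, 4808735 to 4814877, minus strand). It contained one of the 2 most edited FMRP-only sites of all, at 4810999 with 10 of 20 reads (50%, 29.9 to 70.1%), next to sites of 11.1% and 12.5% at 4810766 and 4810826. zip, nonmuscle myosin II heavy chain, held 8 of 11 against 4 and 6, and its 8 sites had 37 to 71 reads and 10.6 to 24.6% editing. kst, the beta-heavy spectrin, held 8 of 12 against 2 and 5. Deaminase-alone replicate 2 listed 9 sites in kst, more than either Hrp48 HyperTRIBE library. beta-Spec held 5 of 8 against 7 and 2. The list of cytoskeletal and motor proteins had 12 of 19 genes with an FMRP-only site and 49 of 102 sites (48.0%, 38.6 to 57.6%), beside 38.6% of all FMRP genes and 29.8% of all FMRP sites.

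Several leading genes serve RNA processing. Prp8, the central protein of the spliceosome, held 10 FMRP-only sites of 12, against 3 and 3, and l(3)72Ab, now Brr2, the spliceosome's helicase, held 7 of 14 against 8 and 8. Not1, the scaffold of the CCR4-NOT deadenylase, held 10 of 17 against 21 and 17, and Upf1, the helicase of nonsense-mediated decay, 5 of 7 against 4 and 4. In Not1 the 10 sites had 20 to 28 reads and 10 to 24% editing, and 3 of them stood within a few bases of each other at 5459370, 5459373 and 5459375, with 18.5%, 14.3% and 11.5%. The list of RNA-binding and splicing proteins had 8 of 16 genes and 31 of 69 sites (44.9%, 33.8 to 56.6%), and CCR4-NOT and decapping 5 of 6 genes and 16 of 35 sites (45.7%, 30.5 to 61.8%), 10 of them in Not1 and 2 each in PAN2 and Rcd1. The shares over all FMRP genes and sites were 38.6% and 29.8%.

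Other leading genes act in membranes and signalling. PI4KIIIalpha, a kinase that makes phosphatidylinositol 4-phosphate, held 12 of 13 against 6 and 3 (X, 2520589 to 2527326, plus strand), all at 10 to 17.4% on 20 to 32 reads. Rme-8, a DnaJ protein of endosomes, held 12 of 22 against 17 and 25. mop, a protein of endosomal sorting, held 10 of 11 against 6 and 2, and garz, an exchange factor for Arf GTPases, 7 of 10 against 4 and 7. The Ste20-type kinase gene msn held 7 of 9 against 16 and 10. The list of membrane traffic and endocytosis includes garz but not mop or Rme-8. It had 8 of 24 genes (33.3%), beside 38.6% of all FMRP genes. By sites it had 24 of 88 (27.3%, 19.1 to 37.4%), near the 29.8% over all FMRP sites. Chc held 5 of 7 against 2 and 4, Vps13, a lipid transfer protein, 4 of 12 against 8 and 11, and mon2 2 of 7 against 15 and 15.

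LanA, the laminin alpha chain that hemocytes secrete into basement membranes, differed from most of these in depth. It held 9 FMRP-only sites of 11, against 2 and 1 in Hrp48 HyperTRIBE (3L, 6199842 to 6205948, minus strand). The FMRP-only sites had 46 to 68 reads, while the few Hrp48 HyperTRIBE sites had medians of 85 and 101. Editing was low throughout, at 10 to 14.7%, so these sites were well covered and near the listing minimum. LanB2, the gamma chain, held 2 of 2, at 11.6 and 15.1%. The hemocyte list had 3 of 8 genes (37.5%), near the 38.6% of all FMRP genes, and 12 of 27 sites (44.4%, 27.6 to 62.7%), beside 29.8% of all FMRP sites. LanA held 9 of these 12, LanB2 2 and Ppn 1.

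The remaining genes among the 20 were CG7518, with 14 of 20 against 6 and 7 and 1 site with deaminase-alone replicate 2 (3R, 8829152 to 8833908), and CG16974, with 10 of 16 against 10 and 8. CG14967, now hob, held 9 of 10 against 1 and 5. Aats-glupro, the bifunctional glutamyl-prolyl-tRNA synthetase, held 8 of 11 against 4 and 1, and tud, the founding Tudor-domain protein of germ granules, 8 of 15 against 28 and 14. Of the 20 genes, zip, Not1, CG5604, kst, ctrip, Rme-8, CG16974, msn and CG7518 also had sites with deaminase-alone replicate 2, between 1 and 9 each, and replicate 1 listed none in any of the 20.

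**Figure D4:**
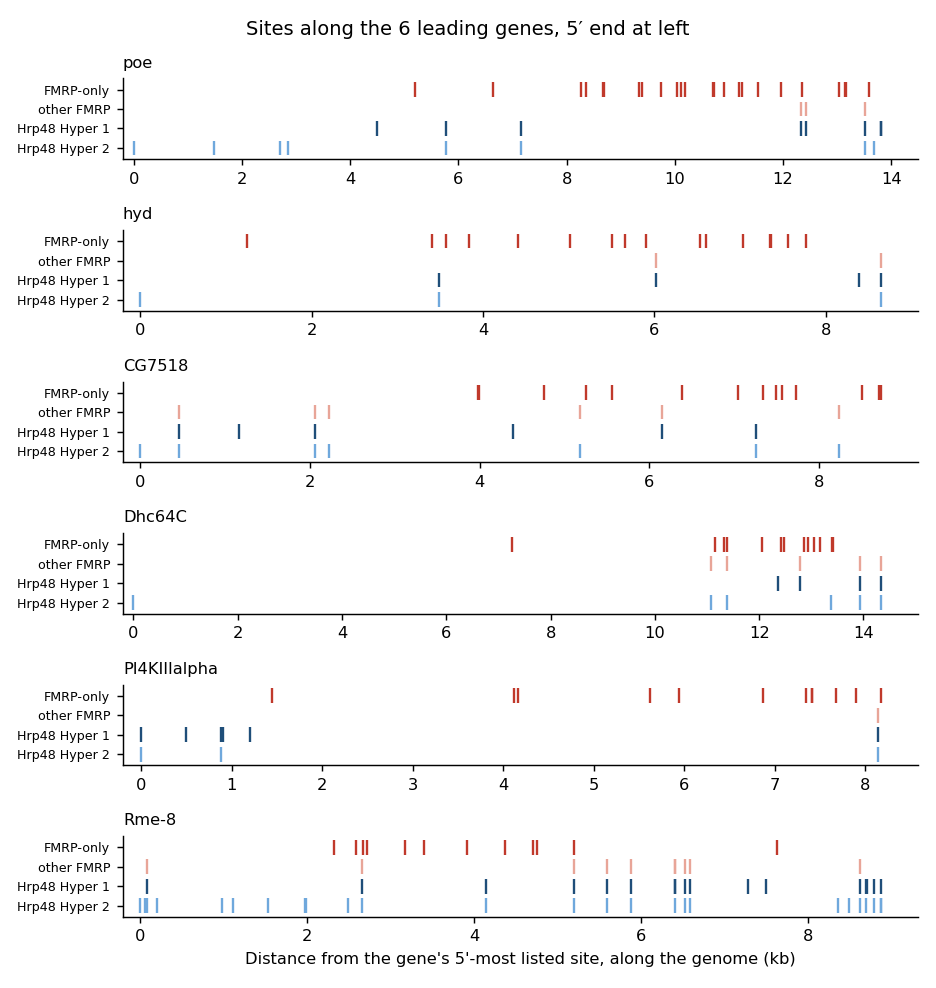
Ticks mark listed sites along the 6 genes with most FMRP-only sites, by distance in kb from the 5′-most listed site of the gene (x axis, genomic distance with introns). In poe the 24 FMRP-only sites (dark red) fill a stretch with few Hrp48 HyperTRIBE sites (blue), and in Rme-8 sites of all kinds mix.

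Genes tied to FMRP itself gave mixed counts. The list of FMRP partners and RNP granule proteins had 8 of 15 FMRP-listed genes with an FMRP-only site (53.3%), beside 38.6% of all FMRP genes. By sites it had 19 of 57 (33.3%, 22.5 to 46.3%), close to the 29.8% over all FMRP sites. pAbp, the poly(A)-binding protein, held 5 of 7 against 8 and 3 in Hrp48 HyperTRIBE. Of these, 4 stood within 82 bases (2R, 14033234 to 14033316, plus strand) at 10.2, 10.9, 14.6 and 15.9%, with no Hrp48 HyperTRIBE site inside. Capr, the fly caprin and a partner of FMRP in the early embryo, held 4 of 8 against 7 and 10. Ge-1, a decapping scaffold, held 3 of 10 against 16 and 12, and AGO2, the Argonaute of the siRNA pathway and a reported FMRP partner in S2 cells, held 2 of 2 against 3 and 3.

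Reported mRNA targets of FMRP in flies were almost absent: of 8 names, 4 were listed in some library and 1 with FMRP, and none held an FMRP-only site. Fmr1 itself held 1 FMRP site, and it was FMRP-only (3R, 5928907, 4 of 35 reads, 11.4%, 4.54 to 26%), whereas Hrp48 HyperTRIBE listed 11 and 14 other sites in Fmr1. Hrb27C held 4 FMRP sites and Adar 6, all of them listed elsewhere. Since the FMRP construct carries Fmr1 sequence and each construct the catalytic domain of Adar, reads in these genes mix construct and endogenous RNA.

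Translation factors were close to the background by sites and ribosomal proteins below it. The list of translation factors and translational control had 10 of 15 genes and 26 of 90 sites (28.9%, 20.5 to 39.0%), beside 38.6% of all FMRP genes and 29.8% of all FMRP sites. eIF3-S10, now eIF3a and the largest subunit of eIF3, held 5 of 8 against 5 and 5, on 67 to 85 reads and at 11.9 to 20.8%. Lk6, the kinase that phosphorylates eIF4E, held 5 of 15 against 20 and 18. larp, a La-related protein, held 3 of 10 against 12 and 12. Cytosolic ribosomal proteins had 9 of 35 genes (25.7%) and 12 of 66 sites (18.2%, 10.7 to 29.1%), led by RpL7 with 3 of 4 against 1 and 1 and RpL6 with 2 of 3 against 3 and 1. None of the 13 FMRP sites in 8 genes of heat shock proteins and chaperones was FMRP-only (upper bound 22.8%).

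Chromatin and transcription regulators had 12 of 17 genes and 24 of 51 sites (47.1%, 34.1 to 60.5%), where all FMRP genes and sites gave 38.6% and 29.8%. dom, an SWR1-type remodeller, held 5 of 10 against 15 and 23. Mi-2, a NuRD remodeller, held 3 of 4 against 24 and 8, tou 3 of 3 against 7 and 10, and Su(z)12, a subunit of Polycomb repressive complex 2, 3 of 4 against 4 and 8. Kinases and phosphatases of growth signalling had 6 of 18 genes and 10 of 54 sites (18.5%, 10.4 to 30.8%), with 5 of these sites in Lk6 and 1 each in wdb, Pi3K92E and gish among them. No list was tested against another, and sites of 1 gene share its depth.

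Some FMRP-only sites were well covered and edited at over 20%. Among those with at least 50 reads, the highest was in Lk6 at 7580645 of 3R, with 23 of 64 reads edited (35.9%, 25.3 to 48.2%), and the nearest Hrp48 HyperTRIBE site of the gene was 99 bases away. In Chc, the clathrin heavy chain, the site at 15723335 of X had 24 of 76 (31.6%, 22.2 to 42.7%), 966 bases from such a site. scra, the fly anillin, had 15 of 57 (26.3%) at 3481479 of 2R, and zip 14 of 57 (24.6%) at 20882186 of 2R. Top2, DNA topoisomerase II, had 13 of 53 (24.5%) at 19449719 of 2L. These intervals all start above the 10% of the listing minimum, but the sites were picked for their high editing, so this follows in part from the choice.

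In AGO2 the site at 15553492 of 3L had 22 of 91 (24.2%, 16.5 to 33.9%) and a second FMRP-only site 24 bases on, at 15553516, had 17 of 99 (17.2%). Aats-thr, threonyl-tRNA synthetase, had 15 of 65 (23.1%), cher, the fly filamin, 13 of 58 (22.4%), and Srp72, of the signal recognition particle, 14 of 63 (22.2%). Capr had 11 of 52 (21.2%, 12.2 to 34.0%) at 18663341 of 3L, with a site 3 bases away at 18663338 of 10 of 51 (19.6%). At lower depth the most edited sites after Dhc64C were in Rad9, of the checkpoint clamp (10 of 20 reads, 50%), and in CG10731 (10 of 21, 47.6%). tou had 40.9% of 22 reads and l(3)72Ab 38.5% of 39.

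A small group of genes was listed with FMRP and nowhere else: 32 of the 2003 FMRP genes (1.6%, 1.13 to 2.25%), with 46 sites. All sites of such genes are FMRP-only by the rule, and of the 773 genes they made up 4.14% (2.95 to 5.79%). Hel89B, a Mot1-type helicase that acts on TBP, stood out with 6 sites, edited at 11.1 to 22.9% on 30 to 58 reads (3R, 11805258 to 11808459, plus strand). Its values along the gene were 20, 11.1, 13.3, 12.1, 22.9 and 12.1%. CG16989 held 3 (15 to 23.8%) and Grip84, a subunit of the gamma-tubulin complex, 3 (13 to 15.2%). CG32164, the SMG1-type kinase gene nonC, the Mediator subunit gene MED6, Taf2 of TFIID and RAF2 held 2 each, on 20 to 34 reads.

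The other 24 of the 32 genes held 1 site each, Rad9 and CG10731 among them. A few were deeply covered, such as RpL26 (13.4% of 127 reads) and Nap1 (10.2% of 108 reads), which were chosen for mention after their values were seen. The RpS14b site (10% of 50 reads) is uncertain, because an adjacent gene copy is nearly identical. The number 32 rests on the Hrp48 HyperTRIBE libraries: it was 63 without replicate 1 and 224 without replicate 2.

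FMRP-only sites often lay near, but seldom next to, sites of Hrp48 HyperTRIBE. A Hrp48 HyperTRIBE site of the same gene stood within 100 bases of 350 of them (25.1%, 22.9 to 27.4%), within 500 bases of 887 (63.5%) and within 1000 bases of 1108 (79.3%), and 53 (3.79%) were in genes without one. The median distance was 297 bases over the 1344 with one. Counted against a single library, 16.7% were within 100 bases of replicate 1 and 19% of replicate 2. By the same count, 43.4% (42.3 to 44.4%) of the sites found only in Hrp48 HyperTRIBE replicate 1 were within 100 bases of a replicate 2 site, and 31.7% (30.8 to 32.5%) of those found only in replicate 2 were near a replicate 1 site. FMRP-only sites were thus less often within 100 bases of a Hrp48 HyperTRIBE library's sites than replicate-only sites were of all sites of the other replicate. The lists differ in length and this difference was not tested.

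Few FMRP-only sites had a Hrp48 HyperTRIBE site close by. Within 25 bases, 69 FMRP-only sites had a replicate 1 site, with a median of 36 reads (quartiles 27 and 47), and 73 had a replicate 2 site, with a median of 40 (31 to 56). The FMRP-only sites in these pairs had medians of 30 and 28 reads. The neighbours had themselves passed the minimum of 20 reads and 10% editing, so they do not give the depth at the other FMRP-only sites, and the part of depth in what was listed was not tested. Both replicates had such a site in 40 cases, and in 11 both had 50 reads or more.

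These pairs of high depth show single positions. In lig, a ubiquitin-associated-domain protein, the FMRP-only site at 3959196 of 2R had 23.3% of 43 reads, and 3 bases away Hrp48 HyperTRIBE listed a site with 12.7% of 55 and 10.8% of 65 reads. In CG5604 the site at 10285210 of 2L had 20% of 30, and 12 bases away Hrp48 HyperTRIBE had 32.7% of 52 and 26.6% of 64. In Arc1, a capsid-forming protein related to retrotransposon Gag, the site at 10246972 of 2R had 13.3% of 113 reads, beside Hrp48 sites with 121 and 117 reads 9 bases away. In Dgp-1, a GTP-binding protein, 11.1% of 54 reads at 14057219 of 2R stood 6 bases from a Hrp48 site of 44.0% and 36.5%. The eIF3-S10 site at 257846 of 3R (11.9% of 67) stood 2 bases from one with 60 and 79 reads.

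FMRP-only sites stood close to each other no more often than the other FMRP sites did. Another FMRP-only site of the same gene stood within 100 bases of 236 of them (16.9%, 15 to 18.9%), and among the other FMRP sites the share was 18.7% (17.4 to 20.1%). Within 500 bases the shares were 38.2% (35.7 to 40.8%) and 43.3% (41.7 to 45.0%). The set of other FMRP sites is larger, and the differences were not tested. The densest stretches of up to 500 bases held 5. Prp8 had 5 between 8045829 and 8046223 of 2R, at 11.4 to 17.9%, with no Hrp48 HyperTRIBE site inside. Dhc64C had 5 between 4808735 and 4809202 of 3L and CG9153, now Herc4, 5 between 1316814 and 1317300 of 3L, each with 1. Stretches of 4 without a Hrp48 HyperTRIBE site were in pAbp, mop, PI4KIIIalpha, CG7518, hyd and poe.

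Nearly all FMRP-only sites were exonic, at 1395 of 1397 (99.9%, 99.5 to 100%), as were 99.8% of the other FMRP sites. By chromosome, FMRP-only sites made up 25.4% (22.6 to 28.5%) of the FMRP sites on 2L, 28.2% on 2R, 33.1% (30.1 to 36.2%) on 3L, 31.0% on 3R and 32.5% on X. On chromosome 4 they were 10 of 54 (18.5%, 10.4 to 30.8%), among them sites in zfh2, CaMKII, gw and unc-13. Since 36 FMRP-only sites (2.58%) overlapped several genes, some gene assignments are shared.

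Along the genes, FMRP-only sites lay more often toward the 5′ end than the Hrp48 HyperTRIBE sites of the same gene. In 514 of 737 genes with both (69.7%, 66.3 to 72.9%) the median FMRP-only site was 5′ of the median Hrp48 HyperTRIBE site, and the median offset over all genes was -630 bases (negative toward the 5′ end, counted along the genome with introns). By lines, one for each site and gene, 270 of 1389 (19.4%, 17.4 to 21.6%) lay 5′ of every Hrp48 HyperTRIBE site of the gene and 96 (6.91%, 5.69 to 8.37%) lay 3′ of every one. Sites listed only with deaminase-alone replicate 2 showed the same measure at 116 of 172 genes (67.4%, 60.1 to 74.0%). The 2 intervals overlapped, and the difference was not tested. All FMRP sites together also leaned to the 5′ side, in 61% of genes against Hrp48 HyperTRIBE replicate 1 and 60.7% against replicate 2, where FMRP-only sites gave 74.6% and 70.1%. The rule took out FMRP sites at positions that Hrp48 HyperTRIBE lists, and these same positions are the reference here. The higher share of FMRP-only sites is therefore tied to the rule, and how far was not tested. For the other FMRP sites the share was 57.3% (55 to 59.6%), but these are mostly Hrp48 HyperTRIBE sites themselves. Sites found only in Hrp48 HyperTRIBE replicate 1 lay 5′ of those of replicate 2 in 58.8% of genes, and the reverse comparison gave 42.6%. Within the genes that held an FMRP-only site these were 56.7% and 48.4%.

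**Figure D5:**
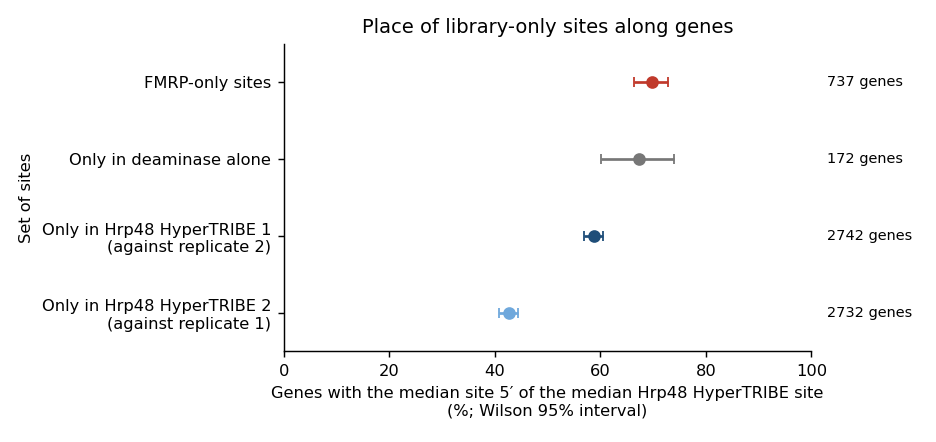
Percent of genes (x axis, with Wilson 95% intervals) in which the median site of a set lies 5′ of the median Hrp48 HyperTRIBE site of that gene. FMRP-only sites stand at 69.7% of 737 genes and deaminase-alone sites at 67.4% of 172, with overlapping intervals, and replicate-only sites of Hrp48 HyperTRIBE at 58.8% and 42.6%.

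A division of genes by position put FMRP-only sites farther to the 5′ side than Hrp48 HyperTRIBE sites. Each of 1150 genes with at least 10 listed sites over at least 1000 bases was cut at the middle of its listed span. The 5′ part held 43.4% of the FMRP-only sites (352 against 459), 36.2% of all FMRP sites and 27.0% and 25.7% of the Hrp48 HyperTRIBE sites. Here too the rule took out FMRP sites at positions that Hrp48 HyperTRIBE lists. The 43.4% is therefore tied to the rule and gives no separate support, and how far it is tied was not tested. For deaminase-alone replicate 2 it held 32.5%, here of all its sites and not only of those that no other library listed. Deaminase alone thus stood below all FMRP sites here, not beside the FMRP-only sites as in the measure by gene medians. Median reads at listed sites in the 5′ and 3′ parts were 26 and 29 for FMRP-only sites, 30 and 33 and then 34 and 37 for the Hrp48 HyperTRIBE libraries, and 26 and 26 for the deaminase alone. Since every listed site has at least 20 reads, these medians do not give the coverage of the genes, and its part in the shift was not tested.

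Single genes went either way. In LanA 5 of 9 FMRP-only sites lay 5′ of both Hrp48 HyperTRIBE sites, and in Prp8, Not1, zip and Rme-8 the offset of the median FMRP-only site from the Hrp48 HyperTRIBE median was -3550, -2946, -2480 and -2228 bases. In PI4KIIIalpha, CG7518, ctrip and poe it was 6210, 3882, 3616 and 3294 bases, on the 3′ side. All 24 sites of poe and all 16 of hyd lay between the outermost Hrp48 HyperTRIBE sites of the gene. CG7518 and kst each had 3 FMRP-only sites 3′ of every Hrp48 HyperTRIBE site.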

How the data were processed

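Editing was measured in poly(A) RNA of S2 cells, in 7 libraries, grouped and numbered by their titles. Nothing in the labels says whether replicates were separate cultures. The other samples of the series were not analysed here. The authors deposited 1 list of sites per library, with whole-number read counts per base, the total reads and the percent edited, and a score that is 10 times this percent and was not used. A second set of base counts, with at least 10 reads and 0 edited, was used to assign the strand, and its sample is not stated. Per the submitters' processing notes, the build was dm3, and Picard 2.8.2 and TopHat2 2.1.1 are named with no role given. Over all 52199 lines the lowest values were 20 reads and 10% edited. Positions, gene names and exon marks are those of the files. How genes were assigned, and which thresholds were set, is not stated in these notes. No genome sequence was used, so no bases around the sites are shown.

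Sites were matched between libraries by chromosome and position. A site in several genes was counted once as a site and again in each of its genes. It was called exonic where at least 1 of these genes marked an exon. A gene's name was looked up in a RefSeq table of Release 6 for its current symbol only: 609 of the 773 names were current, 146 older and 18 unmatched. Shares carry Wilson 95% intervals. The counting scripts were tested on simulated lists. The work was done in Python 3.11.15 with numpy 2.4.6, pandas 2.3.3, matplotlib 3.10.9 and scipy 1.17.1.

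The sites and gene lists were chosen with earlier results of these data known, and the place along genes was added after seeing the data. The genes named were the 20 with most FMRP-only sites (ties by higher median editing), the 10 most edited sites of at least 50 reads, the 10 genes with most sites among those listed with FMRP alone, up to 4 genes per list, and the genes of the constructs; other genes are examples chosen after their values were seen. Alternatives were a minimum of 50 reads, a minimum of 20% editing, a tolerance of 100 bases, a site being listed in both libraries of a construct, other distances, 2 sites per gene, and leaving out each other library.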

Additional observations from a re-analysis of the deposited data

How the results depend on the processing

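Under the alternative settings 64 values stayed close and 40 moved. Close means a count within 1.5 times the main count, or a share or median within its main interval. A change of direction was defined only for the share of genes on the 5′ side, where 0 occurred. Leaving out a Hrp48 TRIBE or deaminase-alone library hardly changed the set (1397 to 1408 sites), so values close to the main ones there say little. With at least 50 reads there were 157 FMRP-only sites (16.6% of FMRP sites, median editing 12.3%, median 64 reads) in 105 genes, 6 of them listed nowhere else and 22 in the fixed lists; 28.0% stood near a Hrp48 HyperTRIBE site, 12.1% near another FMRP-only site, 100% were exonic and 76.5% of genes had them on the 5′ side. With at least 20% edited there were 171 (12.7%, medians 23.5% and 24 reads) in 136 genes, 9 listed nowhere else; the shares were 18.1% near a Hrp48 HyperTRIBE site, 4.68% near another, 100% exonic and 63.5% on the 5′ side. Counting sites within 100 bases as listed left 1031 sites (22%) in 603 genes. Where both libraries of a construct had to list a site, 2485 remained (52.9%, median editing 13.6%) in 1262 genes, with 57.3% near a Hrp48 HyperTRIBE site and 64.4% on the 5′ side. Within 500 bases the shares near a Hrp48 HyperTRIBE site and near another were 63.5% and 38.2%. With at least 2 sites per gene, 276 genes were left, 8 of them listed nowhere else. Leaving out each other library gave 1397 to 2009 sites, shares of 29.8 to 42.8%, median editing of 13 to 13.6%, median reads of 27 to 29, 773 to 1077 genes, 32 to 224 genes listed nowhere else, 18.7 to 25.1% near a Hrp48 HyperTRIBE site, 16.8 to 18.2% near another, 99.8 to 99.9% exonic and 69.5 to 71.0% of genes on the 5′ side. The cause of these moves was not tested. They follow in part from the settings themselves, which keep fewer or more sites.

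No paired analysis was possible because a single FMRP library was analysed and no result comes from a test. The bases next to the sites were not run, since no genome was used here. The distance to Hrp48 HyperTRIBE sites was not computed with the tolerance of 100 bases, which removes near sites by its construction. Depth limits the single sites: at the median of 28 reads and 4 edited reads, single sites cannot be told from the listing minimum of 10%.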
